A study of Mus musculus with 3 samples.

Results

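Mural cells, the pericytes and smooth muscle cells that wrap blood vessels, were examined in single-cell RNA profiles of the stromal vascular fraction of mouse inguinal adipose tissue. They were chosen by their transcripts: of 10789 barcodes, 8186 had at least 500 detected genes and at most 15% mitochondrial UMIs (unique molecular identifiers, each standing for 1 captured transcript), and 156 of those met the mural rule. The rule asked for a UMI of at least 4 of the 8 genes Acta2, Myh11, Tagln, Rgs5, Myl9, Tpm2, Notch3 and Ndufa4l2, 1 of them Rgs5, Myh11 or Notch3, with at most 1 UMI each of Pecam1 and Ptprc. The study set floxed telomerase alleles under either of a pair of mesenchymal Cre drivers beside wild type, with 1 library per genotype: Pdgfra-Cre; TERT fl/fl (46 mural cells), Pdgfrb-Cre; TERT fl/fl (21) and TERT +/+ (89). They are called Pdgfra-Cre, Pdgfrb-Cre and wild type here. With 1 library per genotype no difference between genotypes has a replicate check, so no test between them was made and every interval given covers counting error only.

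Several features limit what the groups can stand for. The labels give the wild type neither Cre nor a floxed allele, so the driver and the deletion cannot be told apart from these libraries. They name no age, sex or number of animals, and the wild-type title carries the word PBS without saying what it refers to. Each Cre is driven by the regulatory sequence of a growth factor receptor gene, and Pdgfrb, the receptor behind the second driver, is transcribed in mural cells themselves. Tert, the deleted gene, was represented by 0 UMIs in Pdgfra-Cre, 1 UMI in Pdgfrb-Cre and 0 UMIs in wild-type mural cells, which says nothing about the state of the allele.

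Pericytes sit inside the basement membrane of capillaries and are recruited by platelet-derived growth factor B from endothelial cells through the receptor Pdgfrb. Smooth muscle cells form the contractile coat of arterioles, arteries and veins, where smooth muscle myosin (Myh11), alpha actin (Acta2) and their regulators set vessel diameter under the control of calcium, receptors for vasoactive hormones, and nitric oxide acting through cyclic GMP. In adipose tissue, mural cells share the vessel wall with endothelial cells and lie beside Pdgfra-expressing stromal cells, and their transcripts are partly shared with both. Serum response factor with its myocardin family partners is the textbook regulator of the contractile genes, acting at a DNA element called the CArG box.

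The label was first checked against markers of other cell types, and against stromal, mesothelial and epithelial markers it held for most of the Pdgfrb-Cre and wild-type cells but not for most of the Pdgfra-Cre cells. In Pdgfra-Cre, 30 of 46 cells had a Pdgfra UMI, or at least 2 UMIs of the mesothelial genes Msln, Upk3b and Lrrn4, or at least 2 UMIs of the keratin genes Krt5, Krt14 and Krt17. In Pdgfrb-Cre 2 of 21 cells had them, and in wild type 2 of 89 cells. In Pdgfra-Cre these 30 cells held 89.5% of the UMIs of all mural-rule cells, against 46.4% for the 2 cells in Pdgfrb-Cre and 7.72% for the 2 cells in wild type. Their make-up was far from that of the remaining cells: the 30 Pdgfra-Cre cells had a median of 14768 UMIs, of which 0.107% came from the 8 rule genes and 1.96% from 20 stromal, mesothelial and epithelial markers. The 14 Pdgfra-Cre cells outside these criteria and with fewer than 3 endothelial UMIs had a median of 2.32% of their UMIs in the 8 rule genes. In Pdgfrb-Cre, 1 barcode of 110420 UMIs held 43.5% of the library's mural UMIs and 1095 epithelial UMIs. A doublet score (scrublet) had 1 mural cell of Pdgfra-Cre, 0 of Pdgfrb-Cre and 1 of wild type among its highest values, and no cell was left out for it.

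**Figure D1:**
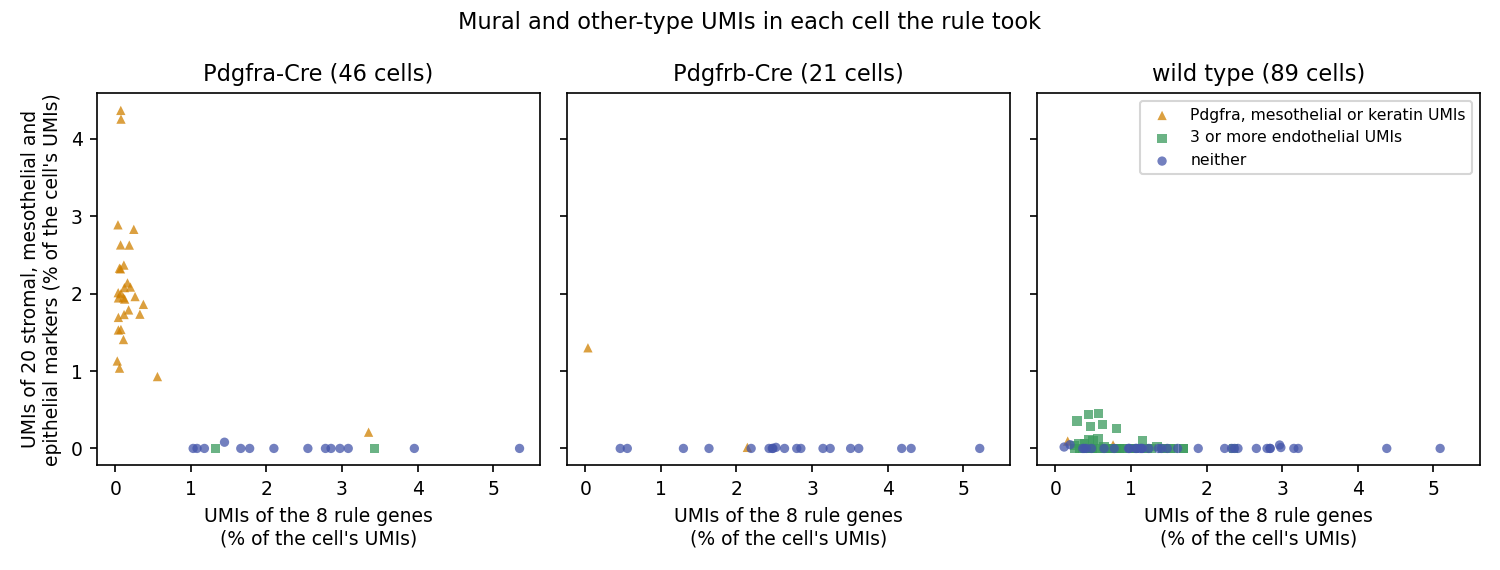
Each point is 1 of the 156 cells the rule took, by library. The horizontal axis is the share of the cell's UMIs in the 8 rule genes, and the vertical axis the share in 20 stromal, mesothelial and epithelial markers (both in percent). Triangles mark cells with Pdgfra, mesothelial or keratin UMIs, squares cells with 3 or more endothelial UMIs, and circles the others; most of the 30 Pdgfra-Cre triangles lie near 0 on the horizontal axis.

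Endothelial transcripts were the second departure, and they sat mainly in wild type. Among the 122 cells left, 2 of 16 Pdgfra-Cre cells, 0 of 19 Pdgfrb-Cre cells and 52 of 87 wild-type cells had 3 or more UMIs of Pecam1, Cdh5, Kdr, Flt1, Emcn, Ptprb and Egfl7. Summed over the 7 genes, the level was 245 CPM in Pdgfra-Cre, 58.8 CPM in Pdgfrb-Cre and 1276 CPM in wild type. CPM here are UMIs summed over the cells of a group per 1000000 UMIs of the group; the reads tag the 3′ end of a transcript, so CPM do not scale with gene length. In endothelial barcodes of the same libraries the 7 genes summed to 5104, 5948 and 6226 CPM, in that order. Without the cells carrying 3 or more endothelial UMIs, 68 cells remained, and their endothelial sum was 68.6 CPM in Pdgfra-Cre, 58.8 CPM in Pdgfrb-Cre and 161 CPM in wild type. The results below therefore rest on 3 nested sets: the 156 rule cells; the 122 cells (16 Pdgfra-Cre, 19 Pdgfrb-Cre and 87 wild type) outside the criteria on Pdgfra, mesothelial and keratin UMIs; and the 68 endothelial-low cells (14 Pdgfra-Cre, 19 Pdgfrb-Cre and 35 wild type). The last set was defined after seeing the data. The 122 cells were not free of other markers: the 7 stromal markers gave 16.4 CPM in Pdgfra-Cre, 7.35 CPM in Pdgfrb-Cre and 262 CPM in wild type, and B cell markers 0, 73.5 and 198 CPM.

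Mural markers were present in every library, but 5 of the 13 in the list are rule genes, so their sum was partly fixed by the choice of cells. The 13 markers summed to 15428 CPM in Pdgfra-Cre, 14816 CPM in Pdgfrb-Cre and 9309 CPM in wild type over the 122 cells. Over the endothelial-low cells the sums were 13855, 14816 and 12053 CPM in the same order. Stromal barcodes of the 3 libraries had 333, 184 and 236 CPM of the same genes. The 8 markers outside the rule (Mcam, Cspg4, Kcnj8, Abcc9, Higd1b, Cox4i2, Des and Pdgfrb) summed to 2538 CPM in Pdgfra-Cre, 1660 CPM in Pdgfrb-Cre and 2132 CPM in wild-type endothelial-low cells, against 271, 141 and 201 CPM in stromal and 446, 428 and 220 CPM in endothelial barcodes. Endothelial barcodes had 2744, 2098 and 1407 CPM of all 13, with an Rgs5 UMI in 43.6%, 52.8% and 29.5% of them, so the endothelial barcodes carried mural transcripts in turn. Lymphocyte barcodes, which should lack the 8 rule genes, had a UMI of any single one in at most 2.55% of cells in Pdgfra-Cre, 1.10% in Pdgfrb-Cre and 2.01% in wild type, at median depths of 5452, 6075 and 4816 UMIs. At least 4 of the 8 genes were seen in 0 of 274, 1 of 2003 and 4 of 947 lymphocyte barcodes. Pdgfra-Cre and Pdgfrb-Cre shared 3 barcode sequences, Pdgfra-Cre and wild type 1, and Pdgfrb-Cre and wild type 5, and 0 of these belonged to a mural cell.

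The cells just inside the rule looked different from those well inside it. Exactly 4 of the 8 genes were found in 22 Pdgfra-Cre, 3 Pdgfrb-Cre and 21 wild-type cells, and all 8 in 6, 4 and 13. Just outside, with exactly 3 of the 8 genes and the rule otherwise met, were 36, 7 and 21 barcodes. Of the cells with exactly 4 genes, 21 in Pdgfra-Cre, 1 in Pdgfrb-Cre and 0 in wild type were among those with markers of another type. The limit on Pecam1 kept out a further 27, 45 and 76 barcodes that met the rest of the rule, and the limit on Ptprc 1, 4 and 7.

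How many mural cells each library held depended on these sets. Rule cells made up 3.23% of kept barcodes in Pdgfra-Cre (95% exact binomial interval 2.37 to 4.28), 0.521% in Pdgfrb-Cre (0.323 to 0.795) and 3.26% in wild type (2.63 to 3.9996). The 122 cells made up 1.12% in Pdgfra-Cre (0.643 to 1.82), 0.471% in Pdgfrb-Cre (0.284 to 0.735) and 3.19% in wild type (2.56 to 3.92). Endothelial-low cells made up 0.982% in Pdgfra-Cre (0.538 to 1.64), 0.471% in Pdgfrb-Cre (0.284 to 0.735) and 1.28% in wild type (0.895 to 1.78). As a share of all kept barcodes, Pdgfrb-Cre was lowest in each set, and its interval was clear of the wild-type interval in each. Lymphocytes weigh on these shares: 2003 of 4033 kept Pdgfrb-Cre barcodes were lymphocytes, against 274 of 1425 in Pdgfra-Cre and 947 of 2728 in wild type. Among kept barcodes with at most 1 Ptprc UMI, the 122 cells were 1.56% in Pdgfra-Cre (0.893 to 2.52), 1.18% in Pdgfrb-Cre (0.715 to 1.84) and 5.41% in wild type (4.35 to 6.63). Endothelial-low cells were 14 of 1027, 19 of 1604 and 35 of 1609 of those barcodes, so the libraries lay closer together there. No interval was computed for them, so clear separation from wild type is not shown for that set on this denominator. Depth also differed: the median cell of the 122 had 2261 UMIs in Pdgfra-Cre, 7396 in Pdgfrb-Cre and 1965 in wild type. With each kept barcode thinned to 1000 UMIs before the rule, the share of rule cells was 1.88% in Pdgfra-Cre, 0.699% in Pdgfrb-Cre and 3.48% in wild type.

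The rule genes themselves, given here as a description because they chose the cells, differed in order between the libraries. Tagln, which encodes the actin-binding protein transgelin, stood at 5807 CPM in Pdgfra-Cre, 8947 CPM in Pdgfrb-Cre and 3908 CPM in wild type over the endothelial-low cells. Acta2 had 5418 CPM in Pdgfra-Cre (4750 to 6154), 7632 CPM in Pdgfrb-Cre (7175 to 8111) and 3841 CPM in wild type (3532 to 4169). Both were ordered alike, with no overlap of the counting intervals. The regulatory light chain Myl9 followed at 2355, 3364 and 1641 CPM, and beta tropomyosin Tpm2 at 2949, 4657 and 2125 CPM, each in the order Pdgfra-Cre, Pdgfrb-Cre, wild type. Myh11 broke the order. It had 1006 CPM in Pdgfra-Cre (731 to 1350), 3577 CPM in Pdgfrb-Cre (3267 to 3910) and 1856 CPM in wild type (1644 to 2089). Pdgfra-Cre was thus lowest for the myosin heavy chain in this set, while above wild type for its light chain. However, 1 cell supplied 56.8% of the Pdgfra-Cre Myh11 UMIs. With cells carrying endothelial UMIs included, the Myh11 intervals of Pdgfra-Cre and wild type overlapped. The levels there were 1178 CPM in Pdgfra-Cre (922 to 1483) and 1318 CPM in wild type (1188 to 1459). Over the endothelial-low cells again, all intervals overlapped for Notch3, the receptor that maintains the smooth muscle coat. It had 572 CPM in Pdgfra-Cre (370 to 844), 815 CPM in Pdgfrb-Cre (671 to 982) and 780 CPM in wild type (645 to 936). Ndufa4l2, a mitochondrial subunit paralog abundant in pericytes, also overlapped at 892, 646 and 733 CPM. In the mouse genome build GRCm38, the GENCODE annotation places Myh11 on chromosome 16 at 14194535 to 14291372 (minus strand), Acta2 on chromosome 19 at 34241090 to 34255590 (minus strand) and Rgs5 on chromosome 1 at 169655501 to 169695813 (plus strand), all protein-coding.

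**Figure D2:**
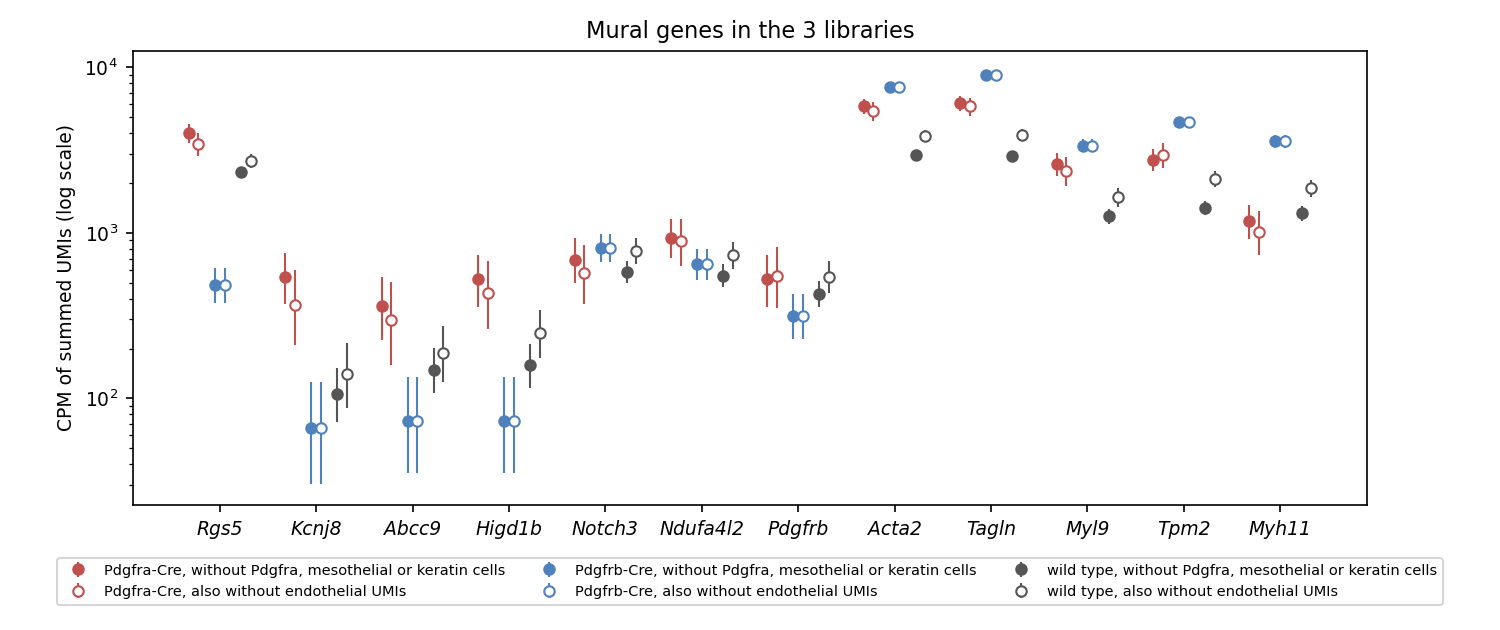
CPM of summed UMIs (log scale) for 12 mural genes in each library. Filled points are the 122 cells, open points the 68 endothelial-low cells, and bars are exact 95% Poisson intervals, which cover counting error only. The 3 libraries lie apart at Rgs5, where Pdgfrb-Cre is at 485 CPM, and close together at Notch3.

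Rgs5, a regulator of G protein signalling and the usual pericyte transcript, ran the other way from Myh11. It had 3429 CPM in Pdgfra-Cre (2903 to 4024), 485 CPM in Pdgfrb-Cre (375 to 617) and 2711 CPM in wild type (2452 to 2989) over the endothelial-low cells. Pdgfrb-Cre was also lowest over the 122 cells, where Pdgfra-Cre had 3992 CPM and wild type 2321 CPM. Several pericyte transcripts that took no part in the rule were also lowest in Pdgfrb-Cre. The subunits of the pericyte potassium channel gave 366 CPM in Pdgfra-Cre, 66.1 CPM in Pdgfrb-Cre and 141 CPM in wild type for Kcnj8, and 297, 73.5 and 188 CPM for Abcc9. Higd1b, a hypoxia-inducible domain gene used as a pericyte marker, had 434, 73.5 and 249 CPM. For Kcnj8 and Abcc9 the intervals of Pdgfrb-Cre and wild type overlapped in this smaller set. Kcnj8 rested on 16, 9 and 21 UMIs, with 1 cell giving 55.6% of them in Pdgfrb-Cre and 1 cell 52.4% in wild type. Abcc9 rested on 13, 10 and 28 UMIs, with 1 cell giving 53.8% in Pdgfra-Cre and 1 cell 60% in Pdgfrb-Cre. Higd1b had 10 UMIs in Pdgfrb-Cre, 50% of them from 1 cell. Pdgfrb, present in both kinds of mural cell, had 549 CPM in Pdgfra-Cre, 316 CPM in Pdgfrb-Cre and 545 CPM in wild type. Other mural markers had their highest level in Pdgfrb-Cre. Mcam, an adhesion molecule of the vessel wall, had 206, 419 and 161 CPM, and Cspg4, the proteoglycan NG2, had 0 CPM in Pdgfra-Cre (upper bound 84.3), 147 CPM in Pdgfrb-Cre and 94.2 CPM in wild type.

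Cell by cell, the libraries differed in which of Rgs5 and Myh11 their mural cells carried. All 16 Pdgfra-Cre cells of the 122 had an Rgs5 UMI (79.4 to 100%), against 7 of 19 Pdgfrb-Cre cells (36.8%, 16.3 to 61.6) and 66 of 87 wild-type cells (75.9%, 65.5 to 84.4). Myh11 was seen in 10 of 16 Pdgfra-Cre cells (62.5%, 35.4 to 84.8), 16 of 19 Pdgfrb-Cre cells (84.2%, 60.4 to 96.6) and 68 of 87 wild-type cells (78.2%, 68.0 to 86.3). Cells with Myh11 and no Rgs5 numbered 0 of 16 in Pdgfra-Cre, 12 of 19 in Pdgfrb-Cre and 19 of 87 in wild type. Over the endothelial-low cells the numbers were 0 of 14, 12 of 19 and 12 of 35. Myh11 was seen in 8 of 14, 16 of 19 (84.2%) and 30 of 35 (85.7%) of them, so Pdgfrb-Cre was not above wild type for Myh11 there. The median Pdgfra-Cre cell of this set held 1986 UMIs, so a Myh11 or Rgs5 transcript could go unseen at this depth. Over the 122 cells the order was the same at equal depth, with each cell thinned to 1000 UMIs and shallower cells left out. An Rgs5 UMI then remained in 14 of 14 Pdgfra-Cre, 6 of 19 Pdgfrb-Cre and 54 of 80 wild-type cells. Myh11 remained in 5 of 14, 14 of 19 and 45 of 80. Over the thinned endothelial-low cells Rgs5 remained in 11 of 12, 6 of 19 and 18 of 32, and Myh11 in 6 of 12, 14 of 19 and 24 of 32. Each set was thinned in its own single random draw, so counts of the same cells differ between the sets by the draw alone. That is why Myh11 is in 6 of these 12 Pdgfra-Cre cells but in 5 of the 14 that include them. For comparison, an Rgs5 UMI was found in 1.82%, 0.899% and 0.845% of the lymphocyte barcodes and a Myh11 UMI in 0.730%, 0.349% and 0.528%.

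**Figure D3:**
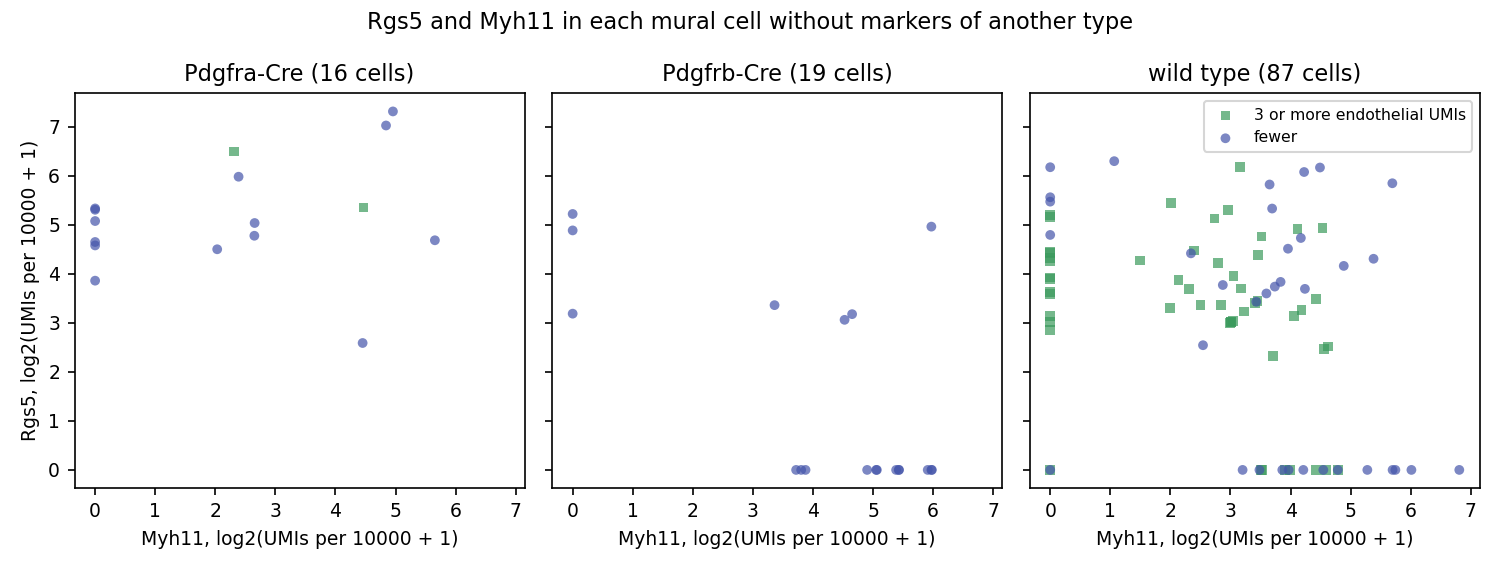
Each point is 1 of the 122 mural cells, with Myh11 on the horizontal and Rgs5 on the vertical axis, both as log2(UMIs per 10000 + 1). Squares are cells with 3 or more endothelial UMIs and circles are cells with fewer. In Pdgfrb-Cre 12 of 19 cells lie on the horizontal axis, with Myh11 and no Rgs5; in Pdgfra-Cre none of 16 does.

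Set beside other cells of the same libraries, the 122 mural cells carried the contractile machinery and the nitric oxide pathway at levels well above both neighbours. A gene was called where log2((CPM + 10)/(CPM + 10)) reached 1 either way among genes of at least 50 CPM on 1 side and 20 UMIs over both; ratios on this scale understate the difference for low genes. Against stromal barcodes (539 in Pdgfra-Cre, 432 in Pdgfrb-Cre and 110 in wild type), 20.3% of 3794 genes in Pdgfra-Cre, 20.3% of 3841 in Pdgfrb-Cre and 17.7% of 3792 in wild type were at least 2-fold higher in mural cells. Of the contractile list, 19 of 20 measured genes in Pdgfra-Cre, 25 of 26 in Pdgfrb-Cre and 22 of 23 in wild type were. That list holds 5 rule genes, so its level is partly fixed by the choice of cells. The nitric oxide and cyclic GMP list holds none, and all its measured genes were at least 2-fold higher: 6 of 6, 7 of 7 and 6 of 6. These counts are partly set by the floor of 50 CPM. Gucy1a1, Gucy1b1 and Pde5a reached it through mural cells and not stromal barcodes, and members low on both sides are not counted. Summed over all 8 genes without a floor, the list had 1882, 1734 and 1453 CPM in mural cells, against 178, 99.4 and 134 CPM in stromal barcodes. The leading member of the list was Gucy1a1, the alpha subunit of the guanylate cyclase that nitric oxide activates. Gucy1a1 had 883 CPM in Pdgfra-Cre mural cells, 690 CPM in Pdgfrb-Cre and 609 CPM in wild type, against 17.9, 6.65 and 14.3 CPM in the stromal barcodes of the same libraries. Its partner Gucy1b1 had 376, 250 and 237 CPM in mural cells, against 9.69, 7.66 and 7.96 CPM in stromal barcodes. The cyclic GMP phosphodiesterase Pde5a, the target of sildenafil, had 180, 125 and 117 CPM in mural cells, against 8.01, 8.67 and 14.3 CPM. Against endothelial barcodes (110, 199 and 271) the list was likewise at least 2-fold higher in 6 of 6, 7 of 7 and 6 of 6 genes, where 17.1%, 15.3% and 9.47% of all genes were. In those barcodes the 8 genes summed to 402, 268 and 233 CPM without a floor, with Gucy1a1 at 175, 110 and 83.6 CPM.

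Receptors for vasoactive signals followed a similar pattern in part. Against stromal barcodes, 5 of 8 measured vasoactive receptor genes were at least 2-fold higher in Pdgfra-Cre mural cells, 7 of 9 in Pdgfrb-Cre and 7 of 10 in wild type, and 2, 1 and 2 were at least 2-fold lower. Over all genes 20.3%, 20.3% and 17.7% were higher and 20.3%, 20.9% and 15.6% lower. Ednra, the endothelin receptor that contracts smooth muscle, had 147, 110 and 191 CPM in mural cells, against 2.98, 2.02 and 1.59 CPM in stromal barcodes. Npy1r, which binds the sympathetic cotransmitter neuropeptide Y, had 311, 176 and 206 CPM, against 5.40, 9.48 and 7.96 CPM. Olfr558, an olfactory receptor family member also found in vascular smooth muscle, had 242 CPM in Pdgfrb-Cre and 245 CPM in wild-type mural cells and was not detected in stromal barcodes of either library. Heyl, a transcriptional target of Notch3, had 196 CPM in Pdgfra-Cre and 88.1 CPM in Pdgfrb-Cre mural cells, against 4.28 and 5.04 CPM in stromal barcodes.

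Matrix genes separated mural cells from stroma in the other direction. Of the fibrillar and elastic matrix list, 12 of 21 measured genes in Pdgfra-Cre, 17 of 21 in Pdgfrb-Cre and 21 of 23 in wild type were at least 2-fold lower in mural cells than in stromal barcodes, where 20.3%, 20.9% and 15.6% of all genes were. Col3a1, a fibrillar collagen, had 785, 242 and 485 CPM in mural cells, against 1724, 5537 and 13374 CPM in stromal barcodes. The gap was narrowest in Pdgfra-Cre, where the stromal barcodes had the least Col3a1 of the 3 libraries. Basement membrane genes showed no such separation from endothelial barcodes: 1 of 13, 4 of 16 and 2 of 15 were at least 2-fold higher, where 17.1%, 15.3% and 9.47% of all genes were, and 1, 6 and 1 were at least 2-fold lower, where 23.2%, 21.5% and 12.1% of all genes were.

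Within mural cells, those with a Myh11 UMI were set against those without, in each library on its own. Since Myh11 defines both sides and the other rule genes also chose the cells, every value here is a description. Cells with Myh11 had more of the contractile transcripts in Pdgfrb-Cre and wild type but hardly so in Pdgfra-Cre. Leaving out Myh11, 3 of 17 measured contractile genes were at least 2-fold higher and 0 lower with Myh11 in Pdgfra-Cre (median log2 ratio 0.12), 21 of 24 higher and 0 lower in Pdgfrb-Cre (2.76) and 13 of 22 higher and 1 lower in wild type (1.15). Over all measured genes the shares at least 2-fold higher were 14% of 429, 31.5% of 1026 and 11.9% of 2234, and the shares at least 2-fold lower 7.23%, 10.9% and 5.73%. The Pdgfrb-Cre side without Myh11 was only 3 cells. Acta2 had 8237 CPM in Pdgfrb-Cre cells with Myh11 against 382 CPM in cells without, and 3591 CPM against 814 CPM in wild type, but 5926 CPM against 5438 CPM in Pdgfra-Cre. Lmod1, leiomodin, which nucleates actin filaments in smooth muscle, had 287 CPM in wild-type cells with Myh11 against 45.2 CPM in cells without.

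The pericyte list did not simply mirror this. In cells with Myh11, 1 of 13 measured pericyte genes was at least 2-fold higher and 0 lower in Pdgfra-Cre, 0 of 9 higher and 3 lower in Pdgfrb-Cre, and 2 of 14 higher and 0 lower in wild type, with median log2 ratios of 0.47, -0.49 and 0.02. Rgs5 had 4182 CPM in Pdgfra-Cre cells with Myh11 against 3094 CPM in cells without. In Pdgfrb-Cre it had 279 CPM against 2959 CPM, and in wild type 2395 CPM against 2080 CPM. Steap4, a metalloreductase of pericytes, had 306 CPM in wild-type cells with Myh11 against 618 CPM in cells without, but 674 CPM against 375 CPM in Pdgfra-Cre. The wild-type pericyte genes past 2-fold were Notch3 and Ndufa4l2, both rule genes and both higher with Myh11. Depth moved with the contrast: the median cell with Myh11 had 4148 UMIs in Pdgfra-Cre, 8176 in Pdgfrb-Cre and 2011 in wild type, against 1778, 4556 and 1574 UMIs without. With each cell thinned to 1000 UMIs the contractile median, Myh11 included, was -0.26 in Pdgfra-Cre, 1.41 in Pdgfrb-Cre and 0.75 in wild type, against 0.23, 2.78 and 1.18 unthinned.

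**Figure D4:**
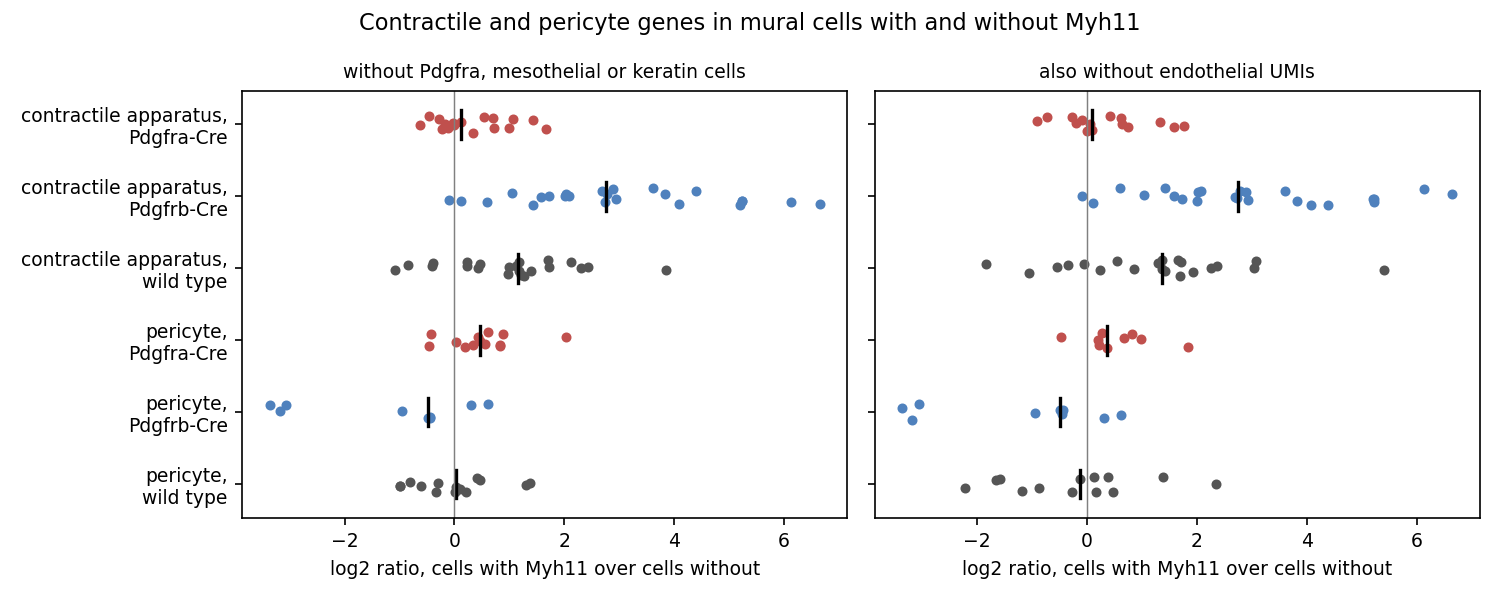
Log2 ratio of CPM in mural cells with Myh11 over those without, 1 point per measured gene of the contractile list (Myh11 itself left out) and of the pericyte list, by library; black bars are medians. The left panel uses the 122 cells, the right panel the 68 endothelial-low cells. Contractile points lie mostly right of 0 in Pdgfrb-Cre and wild type and straddle 0 in Pdgfra-Cre.

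Genes higher with Myh11 in every library were few on the deposited totals. Among 406 genes measured in all 3 libraries of the 122 cells, 4 (0.985%) were at least 2-fold higher with Myh11 in each and 0 were lower. These 4 were Myh11, whose place was fixed because it split the cells, and Gucy1a1, Mustn1 and Dstn. On the side without Myh11 the ratios rested on few UMIs. In the order Pdgfra-Cre, Pdgfrb-Cre, wild type these were 4, 3 and 17 for Gucy1a1, 5, 4 and 6 for Mustn1, and 6, 9 and 25 for Dstn. Gucy1a1 had log2 ratios of 1.38 in Pdgfra-Cre, 1.31 in Pdgfrb-Cre and 1.45 in wild type. Mustn1, a small protein of muscle and skeleton, had 1.06, 2.08 and 2.31. Dstn, destrin, which severs actin filaments, had 1.04, 1.80 and 1.20. The same 4 genes (1.38% of 289) were past 2-fold in the endothelial-low cells, where Prrx1, a mesenchymal transcription factor, was the only gene (0.346%) lower in all 3 libraries, with log2 ratios of -1.41, -1.28 and -1.61. Without the CPM floor the count over the 122 cells was 408, with each cell thinned to 1000 UMIs it was 0, and with median-of-ratios and TMM factors it was 13 and 15, so the number 4 belongs to this floor, depth and scaling. Over the 156 rule cells 12 of 1515 genes (0.792%) were higher and 2 (0.132%) lower.

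The genes whose level was most like that of Myh11 from cell to cell were ranked. By mean Pearson r over the 3 libraries of the 122 cells (16, 19 and 87 cells, log values, 3213 eligible genes), the highest was Palld, the actin crosslinker palladin, at 0.54. Next came Rcan2, a calcineurin regulator, at 0.53, and Mylk, the kinase that phosphorylates the myosin light chain to start contraction, at 0.52. Pdlim3, a Z-line adaptor, followed at 0.50, Acta2 at 0.49 and Olfr558 at 0.47. Neighbours in that order differ by less than the spread between libraries: r for Palld was 0.67 in Pdgfra-Cre, 0.69 in Pdgfrb-Cre and 0.27 in wild type. Rgs5 had r of 0.24 in Pdgfra-Cre, -0.62 in Pdgfrb-Cre and -0.36 in wild type. The points of a library share its depth and capture, so these are descriptions.

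Promoters of the contractile list were searched because its members were higher together with Myh11 in Pdgfrb-Cre and wild type. The CArG box was sought on both strands, which its palindromic form makes the same search, in the 250 bases before each start site of the RefSeq promoter table of build GRCm38.p6. It was found in 482 of 32851 promoters (1.47%), in 4 of 30 promoters of the contractile list (25 of 29 genes had an entry) and in 0 of 21 promoters of the pericyte list (15 of 21 genes had one). The 4 genes were Myl9, Myl6, Vcl and Filip1l. Their windows are shown, except that of Myl6, in lower case with the box in capitals and read 5′ to 3′ on the gene's strand. They lie at chr2:156775214-156775419 (plus strand) for Myl9, chr14:20929148-20929397 (plus strand) for Vcl and chr16:57548992-57549241 (plus strand) for Filip1l.
Myl9: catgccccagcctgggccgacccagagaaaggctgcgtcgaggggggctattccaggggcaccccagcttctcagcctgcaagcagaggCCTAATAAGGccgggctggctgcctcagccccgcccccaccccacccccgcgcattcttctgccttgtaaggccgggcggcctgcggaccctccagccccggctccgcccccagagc
Vcl: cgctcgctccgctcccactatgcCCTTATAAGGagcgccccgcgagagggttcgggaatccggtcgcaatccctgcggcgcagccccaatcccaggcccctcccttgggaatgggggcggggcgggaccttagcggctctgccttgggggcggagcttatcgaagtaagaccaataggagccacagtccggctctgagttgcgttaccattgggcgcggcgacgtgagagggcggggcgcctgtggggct
Filip1l: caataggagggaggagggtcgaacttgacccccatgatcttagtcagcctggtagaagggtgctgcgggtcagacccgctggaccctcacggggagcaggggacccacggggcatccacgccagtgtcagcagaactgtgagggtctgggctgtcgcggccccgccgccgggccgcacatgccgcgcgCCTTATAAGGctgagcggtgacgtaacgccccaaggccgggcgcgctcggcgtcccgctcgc
The Myl9 window is shown for 206 of its 250 bases and ends short of the start site, while those of Vcl and Filip1l are whole. The box begins 161 bases before the start site in Myl9, 227 in Vcl and 62 in Filip1l. Log2 ratios of cells with Myh11 over cells without were -0.62 in Pdgfra-Cre, 2.89 in Pdgfrb-Cre and 1.18 in wild type for Myl9, 0.60 in Pdgfrb-Cre and 0.24 in wild type for Vcl, the focal adhesion protein vinculin, and 0.73, 2.74 and 0.46 for Filip1l. A match is a run of letters and not evidence of binding, and a window without one says nothing beyond these 250 bases. Myh11, Tagln and the others without an entry were not searched.

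Between libraries, the rule cells as taken gave lists that mainly named other cell types. In Pdgfra-Cre, 14.7% of 3863 measured genes were at least 2-fold higher than in wild type and 12.5% lower; in Pdgfrb-Cre 8.11% of 3675 were higher and 12.8% lower. The named genes higher in Pdgfra-Cre included the mesothelial Upk3b and Krt19 and the stromal Dcn, and those higher in Pdgfrb-Cre were led by epithelial genes of the 1 large barcode. Over the 122 cells, the endothelial genes Plvap and Cldn5 were among the named genes lower in each Cre library than in wild type. There 13.9% of all genes were lower in Pdgfra-Cre and 11.6% in Pdgfrb-Cre. The comparisons below are therefore given over the 68 endothelial-low cells, with the 122 cells beside them. Both Cre libraries are set against the same 35 wild-type cells, so their likenesses are not independent.

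In Pdgfra-Cre mural cells, inflammatory and a few pericyte transcripts were higher than in wild type, while the contractile genes depended on the set of cells. Of 1480 measured genes, 131 (8.85%) were at least 2-fold higher and 169 (11.4%) at least 2-fold lower. Higher genes were thus 43.7% of those past 2-fold, but 28.2% with median-of-ratios size factors and 19.9% with TMM factors, which moved the median of all genes by -0.20 and -0.32 on the log2 scale. The contractile list had 3 of 23 genes higher and 1 lower and a median log2 ratio of 0.41 on the deposited totals, 0.20 with median-of-ratios and 0.08 with TMM factors. Without the rule genes it had 3 of 18 higher and 1 lower, with a median of 0.30. In the 122 cells 7 of 23 were higher and 1 lower (median 0.63), and without the rule genes 5 of 18 and 1 (0.57). The list summed to 34385 CPM in Pdgfra-Cre and 26938 CPM in wild type over the endothelial-low cells, and to 35651 and 20843 CPM over the 122 cells. Those higher in the endothelial-low cells were Mustn1, with 67.3% of its Pdgfra-Cre UMIs in 1 cell, Filip1l and Ppp1r14a, an inhibitor of myosin phosphatase, which had 869 CPM in Pdgfra-Cre and 269 CPM in wild type. Sncg, gamma synuclein, was the 1 lower, with 206 CPM against 888 CPM. The pericyte list had 3 of 16 genes higher and 0 lower, and over the 122 cells 8 of 18 higher and 0 lower, where 7.38% of 2777 genes were higher and higher genes were 34.7% of those past 2-fold (20.2% and 17.0% with the other scalings). These counts include the rule genes Rgs5, Notch3 and Ndufa4l2, which chose the cells. Colec11, a secreted lectin, had 572 CPM in Pdgfra-Cre and 20.2 CPM in wild type, a ratio of 28.3 (8.64 to 147) resting on 25 and 3 UMIs. Vtn, vitronectin, had 1029 CPM in Pdgfra-Cre and 148 CPM in wild type, a ratio of 6.95 (4.09 to 12.2), and Kcnj8 was the third.

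Several of these differences were present in the rest of the library too. Vtn stood at 186 CPM in the other kept barcodes of Pdgfra-Cre and 7.36 CPM in those of wild type, whereas Colec11 stood at 2.75 and 2.03 CPM there. All 4 measured genes of the inflammatory list were at least 2-fold higher in Pdgfra-Cre mural cells, and over the 122 cells 3 of 7, with 1 lower. These counts are partly set by the floor of 50 CPM, which Cxcl1 reached through Pdgfra-Cre and not wild type. Summed over all 23 genes without a floor, the list had 4092 CPM in Pdgfra-Cre and 942 CPM in wild-type endothelial-low cells. The sums were 3992 and 1935 CPM over the 122 cells, and 6989 and 1951 CPM in the other barcodes. Cxcl1, a neutrophil chemokine, had 983 CPM in Pdgfra-Cre mural cells and 47.1 CPM in wild type, and 892 and 25.1 CPM in the other barcodes of those libraries; 1 cell supplied 60.5% of its Pdgfra-Cre UMIs. Cxcl12, the chemokine that holds haematopoietic cells near vessels, had 1120 CPM against 262 CPM in mural cells, while the other barcodes had 378 and 415 CPM. It was seen in 13 of 14 Pdgfra-Cre and 15 of 35 wild-type cells. Ccl11, eotaxin, had 709 CPM against 121 CPM, from 4 of 14 and 4 of 35 cells. Gstm1, a glutathione transferase, had 1326 CPM in Pdgfra-Cre (13 of 14 cells) and 114 CPM in wild type (10 of 35 cells), beside 759 and 63.3 CPM in the other barcodes. Cdkn1a, the p53 target p21, had 594 CPM against 53.8 CPM, but 1 cell supplied 76.9% of its Pdgfra-Cre UMIs.

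The genes lowest in Pdgfra-Cre beside wild type were led by Gdpd3, a lysophospholipase D, with 0 and 82 UMIs. Against the limit of 3 counts it was at least 8.04-fold lower, and the other barcodes had 2.23 CPM in Pdgfra-Cre and 371 CPM in wild type. Ednrb, the endothelin receptor B, had 0 UMIs in Pdgfra-Cre against 70 UMIs in wild type (at least 6.86-fold lower), but 1 wild-type cell held 68.6% of those. Cyp26b1 and Mybpc1 rested still more on 1 wild-type cell each, with 85.2% and 95.7% of their UMIs. Hspa1a, the inducible heat shock protein, had 366 CPM against 2744 CPM in mural cells and 297 against 2057 CPM in the other barcodes. Mitochondrially encoded transcripts were lower as a group: 0 of 12 were at least 2-fold higher and 4 lower, with a median log2 ratio of -0.79, and their sum was 43461 CPM in Pdgfra-Cre and 75002 CPM in wild type, against 25588 and 52760 CPM in the other barcodes. Of the basement membrane list 0 of 11 genes were higher and 4 lower. Over all measured genes of these cells 8.85% were higher and 11.4% lower. Sparcl1, an adhesion-modulating matrix protein of vessels, had 823 CPM in Pdgfra-Cre and 2771 CPM in wild type.

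In Pdgfrb-Cre mural cells, the contractile genes were higher than in wild type and a group of pericyte genes lower. Of 2273 measured genes, 233 (10.3%) were at least 2-fold higher and 183 (8.05%) at least 2-fold lower. The contractile list had 15 of 28 genes higher and 0 lower, with a median log2 ratio of 1.03, and 1.02 and 1.13 with the other scalings. Without its 5 rule genes, which chose the cells, 12 of 23 were higher and 0 lower, with a median of 1.02. In the 122 cells it was 23 of 28 with a median of 1.45, and 18 of 23 with 1.46 without the rule genes, where 8.12% of 3300 genes were higher. The highest ratio was that of Cnn1, calponin, a marker of mature smooth muscle, with 140 CPM in Pdgfrb-Cre (9 of 19 cells) and 20.2 CPM in wild type (2 of 35 cells). Pcp4l1, a calmodulin-binding peptide, had 617 CPM against 128 CPM, and Csrp1, a LIM protein of smooth muscle, 1190 CPM against 316 CPM. Lmod1 had 918 CPM against 303 CPM, and Pln, phospholamban, which restrains the calcium pump of the sarcoplasmic reticulum, had 338 CPM against 108 CPM. In the other barcodes of these libraries the highest of these 5 genes was Csrp1, at 72.9 CPM in Pdgfrb-Cre and 54.4 CPM in wild type. Over the 122 cells the list's median was 1.34 between cells with Myh11 alone and -0.33 between cells without, where Pdgfrb-Cre had 3 cells and wild type 19.

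The pericyte list in Pdgfrb-Cre had 1 of 17 genes higher and 6 lower, with a median log2 ratio of -0.85. Over all measured genes of these cells 10.3% were higher and 8.05% lower. The list holds the rule genes Rgs5, Notch3 and Ndufa4l2, so its counts and median are partly set by the choice of cells. Values without them were not computed. Rgs5 had a log2 ratio of -2.46. Steap4 had 95.5 CPM against 356 CPM, Vtn 36.7 CPM against 148 CPM and Higd1b 73.5 CPM against 249 CPM. The 1 higher was Mcam, at a log2 ratio of 1.32. Notch3, Heyl and Ndufa4l2 stayed within 2-fold, with log2 ratios of 0.06, 0.62 and -0.18. The median over the 122 cells was -0.43 on summed UMIs but 0.33 as a mean of per-cell CPM and 0.17 with cells thinned to 1000 UMIs, so the direction of the list as a whole depends on the weight given to deep cells. Receptors differed one by one: P2rx1, an ATP-gated channel of vascular smooth muscle, had 220 CPM against 87.4 CPM, and Agtr1a, the angiotensin receptor, 22.04 CPM against 114 CPM. The nitric oxide and cyclic GMP genes were level, with 0 of 6 past 2-fold either way and Gucy1a1 at 690 CPM in Pdgfrb-Cre and 686 CPM in wild type.

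**Figure D5:**
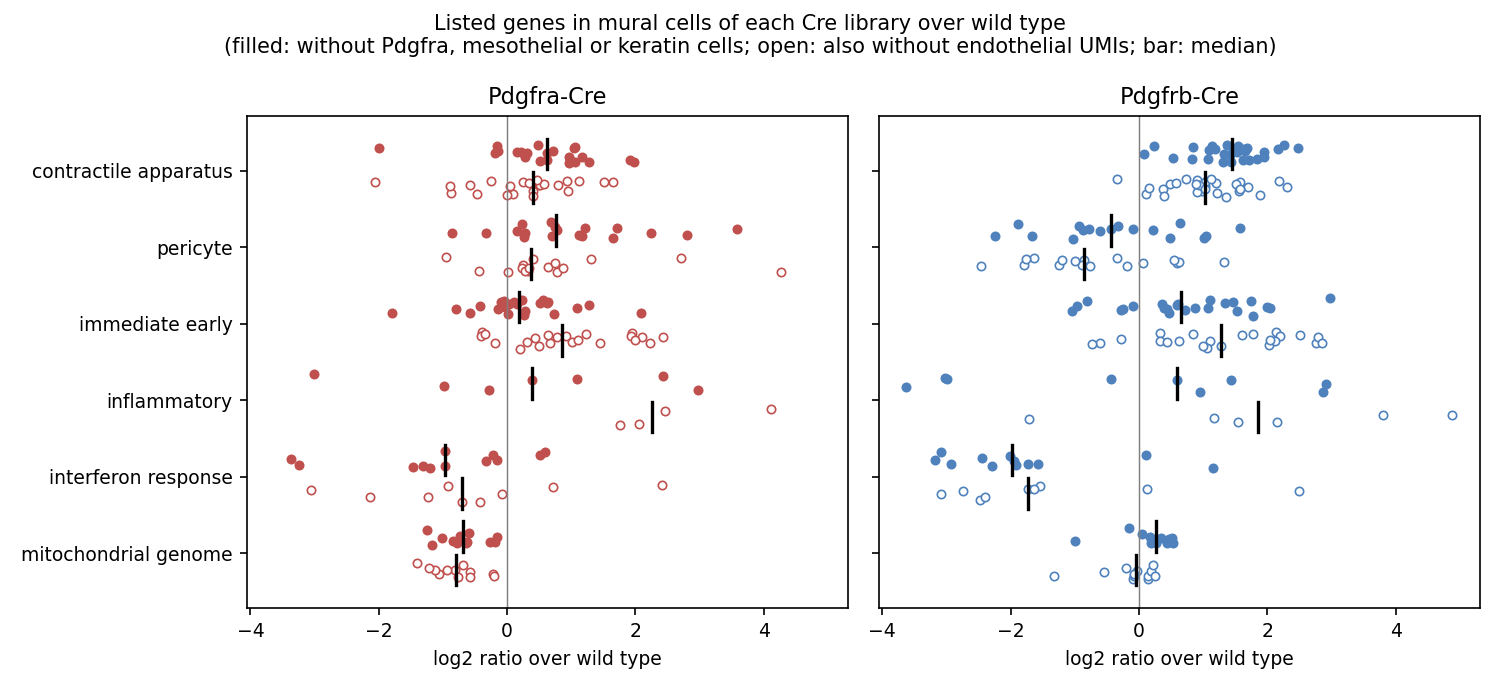
Log2 ratio of CPM in mural cells of Pdgfra-Cre (left) and Pdgfrb-Cre (right) over wild type, 1 point per measured gene of 6 lists; filled points are the 122 cells, open points the endothelial-low cells, and bars medians. In Pdgfrb-Cre the contractile points lie right of 0 with medians of 1.45 and 1.03, and the interferon points mostly left of it.

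Immediate early transcripts, and the metallothionein gene Mt1, were higher in the endothelial-low cells of both Cre libraries than in wild type, and also in the other barcodes. Of the immediate early list, 10 of 22 genes were at least 2-fold higher and 0 lower in Pdgfra-Cre (median 0.85), and 14 of 23 higher and 0 lower in Pdgfrb-Cre (1.28). Over all measured genes of these cells, 8.85% were higher and 11.4% lower in Pdgfra-Cre, and 10.3% higher and 8.05% lower in Pdgfrb-Cre. Over the 122 cells the Pdgfra-Cre count was 3 of 24 with 1 lower, where 7.38% of all genes were higher and 13.9% lower. Its median of 0.19 turned to -0.01 and -0.07 with the other scalings. Summed over the list, endothelial-low cells had 19090 CPM in Pdgfra-Cre, 24432 CPM in Pdgfrb-Cre and 10990 CPM in wild type, beside 27143, 14796 and 9903 CPM in the other kept barcodes. Atf3, a stress-induced transcription factor, had 869, 1374 and 195 CPM in mural cells and was seen in 7 of 14, 13 of 19 and 6 of 35 of them. The part of the library-wide difference in these values was not tested. Metallothionein Mt1, which binds zinc and copper, had 1463 CPM in Pdgfra-Cre, 2688 CPM in Pdgfrb-Cre and 108 CPM in wild-type mural cells, beside 2643, 1136 and 77.1 CPM in the other barcodes. Mt1 was seen in 10 of 14, 15 of 19 and 4 of 35 cells, with 68.8% of the wild-type UMIs in 1 cell. Over the 122 cells Mt1 had 1080, 2688 and 326 CPM, so its ratio of Pdgfrb-Cre over wild type was 8.25 (6.54 to 10.5) there and 24.98 (15.2 to 44.2) in the endothelial-low cells. Of the oxidative stress and metallothionein list 3 of 8 genes were higher and 0 lower in Pdgfra-Cre, and 2 of 10 higher and 1 lower in Pdgfrb-Cre. With so few genes, the Pdgfrb-Cre counts lie near the shares of all genes given above.

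Gdf15, Cdkn1a and Fgf1 were among the named genes higher in Pdgfrb-Cre mural cells than in wild type. Of the list of vessel growth factors and receptors 0 of 6 measured genes were higher and 1 lower. With so few genes these counts lie near the shares over all genes, 10.3% higher and 8.05% lower. Gdf15, a circulating stress hormone and p53 target, had 441 CPM in Pdgfrb-Cre (10 of 19 cells) and 20.2 CPM in wild type (3 of 35 cells), a ratio of 21.8 (7.12 to 109), beside 58.3 and 7.02 CPM in the other barcodes. Cdkn1a had 580 CPM in Pdgfrb-Cre and 53.8 CPM in wild type, a ratio of 10.8 (5.21 to 25.8), from 13 of 19 and 5 of 35 cells. Of the p53 and senescence list 3 of 5 measured genes were at least 2-fold higher and 0 lower, where 10.3% and 8.05% of all genes were. Over the 122 cells the list's median of 1.41 turned to -0.30 with no CPM floor and -0.46 with thinned cells. Bax, the apoptosis effector, had 110 CPM against 148 CPM in the endothelial-low cells. Fgf1, an acidic fibroblast growth factor, had 206 CPM against 6.73 CPM (13 of 19 and 1 of 35 cells), a ratio of 30.6 (5.06 to 1250), and 1.23 and 0.508 CPM in the other barcodes. Rasd1, a dexamethasone-induced Ras protein, had 294 CPM against 20.2 CPM with 10.3 and 9.22 CPM in the other barcodes. The cytokine Il6 had 683 CPM against 13.5 CPM, but 1 cell held 73.1% of its Pdgfrb-Cre UMIs.

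Interferon-response transcripts were lower in Pdgfrb-Cre mural cells than in wild type, and their sum was lower in the other barcodes too. Of the interferon list 1 of 9 measured genes was at least 2-fold higher and 7 lower, with a median log2 ratio of -1.73, and over the 122 cells 1 of 12 higher and 10 lower. Over all measured genes 10.3% were higher and 8.05% lower in the endothelial-low cells, and 8.12% and 11.6% over the 122 cells. Summed over the list, endothelial-low cells had 1572 CPM in Pdgfrb-Cre and 4244 CPM in wild type. The other kept barcodes had 3751 and 5168 CPM, stromal barcodes 4114 and 6964 CPM, and lymphocyte barcodes 2974 and 3948 CPM. The part of the library-wide difference in the mural values was not tested. B2m, the light chain of class I major histocompatibility molecules, had 147 CPM in Pdgfrb-Cre and 861 CPM in wild type, while the other barcodes had 1633 and 2102 CPM. Ifitm3, a membrane antiviral factor, had 624 CPM against 1843 CPM in mural cells, with 641 and 720 CPM in the other barcodes. The 1 higher was Irf1, with 389 CPM against 60.5 CPM. In Pdgfra-Cre the list had 1 of 9 genes higher and 3 lower, where 8.85% and 11.4% of all genes were, and B2m had 640 CPM. Endothelial markers summed to 58.8 CPM in Pdgfrb-Cre and 161 CPM in wild type in these cells, and the interferon list summed to 6976 and 6700 CPM in endothelial barcodes; B cell markers summed to 73.5 CPM (1 of 19 cells) in Pdgfrb-Cre and 188 CPM (10 of 35 cells) in wild type, and T cell markers to 0 and 67.3 CPM. What part RNA of these cell types has in the difference was not tested. Apoe, a lipid carrier, had 7.35 CPM (1 UMI) in Pdgfrb-Cre and 531 CPM in wild-type mural cells, beside 569 and 1186 CPM in the other barcodes. The inducible Hspa1a had 382 CPM against 2744 CPM, beside 210 and 2057 CPM in the other barcodes. Gdpd3 had 0 UMIs in Pdgfrb-Cre against 82 UMIs in wild type, at least 25.03-fold lower, and 1.62 and 371 CPM in the other barcodes. Ifitm1 had 0 UMIs against 49 UMIs from 14 of 35 wild-type cells, at least 14.96-fold lower, with 15.8 and 18.1 CPM in the other barcodes.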

How the data were processed

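Cells of the inguinal stromal vascular fraction were profiled with the 10x 3′ v3 chemistry after removal of dead cells and red cells, per the labels' protocols. The authors deposited UMI counts per gene and barcode, 1 matrix for each genotype, made with Cell Ranger 3.1.0 and STAR 2.6 on mm10, per the submitters' processing notes. The matrices hold 31053 features, 71 of which share a symbol. They contain 14438471 UMIs for Pdgfra-Cre, 30826733 for Pdgfrb-Cre and 13352288 for wild type.

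From these counts, barcodes were kept (1425, 4033 and 2728) where 500 or more genes were seen and mitochondrial UMIs made up 15% or less and the mural rule was applied. The members, the gene lists and the sets compared were chosen with earlier results of these data known. UMIs were summed over cells and divided by the sum's total (CPM). A gene was measured at 50 CPM or more on 1 side and 20 UMIs over both, and called at a log2 ratio of 1 with 10 CPM added to each side. Intervals are exact 95% Poisson or Clopper-Pearson binomial intervals and cover counting error only. A count of 0 was given a limit of 3 counts per library. Named genes between libraries were the 12 with the largest ratio each way, passing over those higher in the rest of the library; in the Myh11 contrast, those with the largest smallest ratio over the 3 libraries; from each of the 22 lists (429 symbols, 8 not matched) the 2 highest and 2 lowest. Further members of the lists were named after their values were seen. Endothelial, stromal and lymphocyte barcodes were defined by markers. Alternatives were other cell filters, 5 of 8 rule genes, thinning to 1000 UMIs, means of per-cell CPM, no CPM floor, median-of-ratios and TMM scaling, and sets without cells carrying other markers. The calculations were tested on simulated data. Python 3.11.15, numpy 2.4.6, scipy 1.17.1, pandas 2.3.3, scanpy 1.11.5 and matplotlib 3.10.9 were used. With 1 library per genotype, cells are not replicates and no p-value was computed.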

Additional observations from a re-analysis of the deposited data

How the results depend on the processing

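No paired analysis was possible because each genotype has 1 library. Of the shares and counts of genes, 66 kept within their limits and 36 moved; of the list medians 1202 kept, 124 moved and 19 reversed, and of the named genes 727, 221 and 12. Those reversed do not cover every change of sign. Over the 122 cells the Pdgfrb-Cre pericyte median, negative on summed UMIs, was 0.17 thinned and is counted as kept. The contractile median of the Pdgfra-Cre Myh11 contrast, positive unthinned, was -0.26 thinned and is counted as moved. The mural share in Pdgfra-Cre (3.23%) was 1.68% with at least 5 of 8 genes, 1.88% with thinning to 1000 UMIs, 1.12% without cells with markers of another type, 0.982% also without endothelial UMIs and 4.48% among barcodes with at most 1 Ptprc UMI. The last denominator gave 1.31% in Pdgfrb-Cre (0.521%) and 5.53% in wild type (3.26%), where at least 5 genes gave 2.49% and the endothelial-low set 1.28%. The share with Myh11 in Pdgfra-Cre (78.3%) was 53.8% thinned, 62.5% without cells with other markers and 50% with at least 2 Myh11 UMIs, which gave 50.6% in wild type (77.5%). Genes past 2-fold in Pdgfra-Cre (1050) were 2253 with no CPM floor, 261 thinned, 590 without cells with other markers and 353 in cells without Myh11; in Pdgfrb-Cre (768) they were 2343 with no floor and 218 thinned. Over the 122 cells outside the criteria on Pdgfra, mesothelial and keratin UMIs the Pdgfra-Cre count (590) was 968 as mean per-cell CPM, 4087 with no floor, 183 thinned, 195 in cells without Myh11 and 300 in endothelial-low cells, and the Pdgfrb-Cre count (651) 2866, 208, 206 and 416 for the last 4. Genes past 2-fold with Myh11 in all 3 libraries (14) were 115 with no floor, 0 thinned and 4 without cells with other markers; over the 122 cells (4) they were 7 as mean per-cell CPM, 13 with median-of-ratios, 15 with TMM, 408 with no floor and 0 thinned. Over the 156 cells the pericyte median in Pdgfra-Cre (-1.52) reversed to 0.29 as mean per-cell CPM and 0.76 without cells with other markers, and the nitric oxide and cGMP median (-1.51) to 0.22. Dcn reversed to -3.85, Efemp1 to -1.27, Fbln1 and Krt19 to -0.44 and Trf to -0.77 in that set, and in cells without Myh11 Krt19 reversed to -1.18 and Cxcl13 to 2.03. In Pdgfrb-Cre the pericyte median (-1.08) reversed to 0.23 as mean per-cell CPM and 0.73 thinned, and the inflammatory median (-1.02) to 0.75 thinned, 0.60 without cells with other markers, 0.26 in cells with Myh11 and 0.28 in cells without. Krt19 reversed to -0.44 and Prlr to -0.77 and, in cells with Myh11, -0.53. In the Pdgfrb-Cre Myh11 contrast the pericyte median (2.34) reversed to -0.43 as mean per-cell CPM and -0.49 without cells with other markers, basement membrane to -0.14 and fibrillar matrix to -0.58 and -0.63; in wild type fibrillar matrix reversed to 0.13. Over the 122 cells Fbxo33 in Pdgfra-Cre reversed to -1.17 thinned and -2.00 in cells without Myh11, the p53 median in Pdgfrb-Cre (1.41) to -0.30 with no floor and -0.46 thinned, its contractile median to -0.33 in cells without Myh11, and the inflammatory median of the wild-type Myh11 contrast to -0.47 thinned. Fewer cells, UMIs or genes enter the sets and thinned values by construction; other causes were not tested. The sets without other markers were planned, and the endothelial-low set was chosen after seeing the data.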
